A study of Mus musculus with 12 samples.

Results

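Transcripts of 44 genes of fatty acid oxidation and ketone body metabolism were followed in liver tumors and non-tumoral livers of mice that express telomerase reverse transcriptase (Tert) from the p21 promoter. The 44 were set as a list of gene symbols by pathway, with earlier results of these data known, so the list is not independent of the data. Each was found among the 24421 symbols counted in every library. By the roles of their products, 18 act in mitochondrial β-oxidation, 14 in peroxisomes, 6 are acyl-CoA thioesterases, and 6 serve fatty acid uptake, binding, activation and storage or are other known targets of PPARα. Bdh1 is the 1 enzyme of the ketone body pathway among them, so the list is mainly one of oxidation. In p21+/Tert mice Tert was expressed from the Cdkn1a (p21) locus, and in p21+/TertCi mice the same construct carried a catalytically inactive Tert. Both genotypes keep their endogenous Tert genes, all mice ate a standard diet, and all were killed at over 18 months of age. Poly(A) RNA was sequenced from 4 p21+/Tert livers and 4 p21+/Tert tumors (T-HCA992, T-HCC941, T-HCC663, and T-HCC662) and from 2 p21+/TertCi livers and 2 p21+/TertCi tumors (TCi-HCC981 and TCi-HCA984). Each tumor and liver came from 1 mouse, so a driver class rests on 2 tumors. By the mutations given for them in the study, T-HCC662 and T-HCC663 carry Ctnnb1 mutations, T-HCC941 and TCi-HCC981 carry an Egfr and an Hras mutation, respectively, and T-HCA992 and TCi-HCA984 carry neither. T-HCC663 is listed as an adenoma in the study's histology. Both Ctnnb1-mutated tumors are p21+/Tert and both tumors with neither driver are adenomas, so a contrast of all 6 tumors by Ctnnb1 mixes driver with genotype (it was also run within p21+/Tert libraries), and in the tumors with neither driver the driver cannot be told apart from histology.

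Fatty acids enter hepatocytes with the help of carriers such as CD36 and are activated to acyl-CoA by synthetases such as ACSL1. Carnitine palmitoyltransferases and a carnitine carrier bring long chains into mitochondria, where acyl-CoA dehydrogenases, hydratases, hydroxyacyl-CoA dehydrogenases and thiolases shorten them and electron transfer flavoprotein takes up the electrons. Peroxisomes shorten very long and branched chains, including phytanic acid and bile acid precursors, and thioesterases release free acids from CoA. The nuclear receptor PPARα binds with RXR to direct repeats of a short half-site, and many of these genes are its known targets in liver.

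Between 14571716 and 26170661 reads per library were counted on genes, and levels below are TMM-scaled counts per 1000000 (CPM). Hepatocyte markers (8 genes, among them Alb and Apoa1) were detected in every library. Their summed level was 35527 to 59821 CPM in livers, 18712 to 36689 in Ctnnb1-mutated tumors, and 72638 to 99193 in the other 4 tumors, with Alb alone at up to 72143 CPM. The summed levels in livers, Ctnnb1-mutated tumors, and the other tumors were 53.1 to 165, 50.8 to 95.8, and 134 to 256 CPM for 6 endothelial markers, and 112 to 1314, 80.2 to 564, and 106 to 954 CPM for 6 macrophage markers. In the same order, stellate cell and fibroblast markers (6 genes) summed to 55.9 to 259, 29.3 to 72.8, and 142 to 355 CPM, bile duct markers (5 genes) to 50.9 to 134, 17.8 to 35.5, and 60.8 to 1064 CPM (with Spp1 alone at up to 1037 CPM and Krt19, Krt7, and Epcam at 2.94 CPM or less), and lymphocyte markers (7 genes) to 6.59 to 62.1, 22.2 to 39.1, and 15.5 to 84.4 CPM. Of 4 adipocyte markers (summed 2.83 to 7.03, 16.0 to 39.6, and 13.8 to 35.6 CPM), Lep was at 0 in all 12 libraries and Adipoq and Plin1 at 0 in 10, and Fabp4 carried the sum. The part of these differences in cell content in the results below was not tested, and in bulk tissue fewer hepatocytes cannot be told apart from less RNA per hepatocyte. The titles of 6 libraries begin with p_ (T-HCC662, T-HCC663, and T-HCC941 and the livers of the same mice), and what the prefix stands for is not given. These livers differed from the other 3 in several of the genes below, so each comparison was also fitted with the prefix as a covariate. Both Ctnnb1-mutated tumors carry the prefix, and T-HCC941 is the only other tumor that does. No p21+/TertCi library carries it. The contrasts by Ctnnb1 and by genotype are therefore partly mixed with the prefix.

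As the members include known PPARα targets, RefSeq promoter windows (250 bases before to 50 after the start site, GRCm38.p6) were searched on both strands for AGGTCA repeated directly with 1 base between, allowing 2 mismatches over 12 bases. Of the 39 members with a window, 8 held a match (20.5%), against 1190 of 27025 genes (4.40%). A match is a description of letters and not of binding. The matches of Slc25a20, the carnitine and acylcarnitine carrier, and of Acox2, a peroxisomal oxidase, lay after the start site. The 6 that lay before it are shown on the strand of the gene, with the match in capitals and those flanking bases that lie before the start site. Each match reads on the opposite strand, so the half-site appears as its reverse complement.
Etfa (chr9:55512308-55512320, minus strand): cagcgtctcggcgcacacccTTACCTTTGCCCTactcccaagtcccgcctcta
Acot4 (chr12:84038366-84038378, plus strand): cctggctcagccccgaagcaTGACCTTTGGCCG
Acot12 (chr13:91741411-91741423, plus strand): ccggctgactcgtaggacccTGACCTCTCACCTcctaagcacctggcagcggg
Fabp1 (chr6:71199812-71199824, plus strand): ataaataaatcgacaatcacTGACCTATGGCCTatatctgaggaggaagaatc
Cd36 (chr5:17835947-17835959, minus strand): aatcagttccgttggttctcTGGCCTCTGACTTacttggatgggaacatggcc
Plin2 (chr4:86670272-86670284, minus strand): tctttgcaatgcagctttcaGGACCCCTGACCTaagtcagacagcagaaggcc
The matches of Fabp1 and Acot12 had 1 mismatch and the other 6 had 2. These 8 genes did not all move in the same direction. Etfa, Acot12, and Slc25a20 were lower in tumors without Ctnnb1 mutation than in livers. Acot4, Fabp1, Cd36, Plin2, and Acox2 passed the test neither there nor between Ctnnb1-mutated and other tumors. Not passing does not mean no change, as Fabp1 fell further against livers than the called genes and narrowly missed the threshold. Cd36, Plin2, and Acox2 had positive log2 fold changes in that comparison.

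In the livers the members together took from 1.22% to 1.91% of all counts. Per kilobase of exons, the highest mean levels were those of Fabp1 (2971 CPM per kb), a cytosolic fatty acid binding protein, Scp2 (867), whose longer product is a peroxisomal thiolase, Phyh (788), the phytanoyl-CoA hydroxylase of α-oxidation, Acaa1b (587), and Acaa2 (459.5), the peroxisomal and mitochondrial thiolases. The lowest was that of Pdk4 (4.12 CPM per kb), a kinase that inhibits pyruvate dehydrogenase. All exons of a gene were counted in these lengths, whether or not the liver uses them. Acaa1a and Acaa1b share 9.50% and 24.4% of their 75-base stretches with transcripts of each other, and Acot1, Acot2, and Acot3 share 15%, 21.2%, and 16.0% with each other or with further gene models, so the split of reads within each family is uncertain. The same holds for Etfb (39.6%), Hacl1 (25.7%), Scp2 (25.6%), and Hadhb (16.7%), which share sequence with pseudogenes or overlapping gene models.

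No member passed the test between p21+/Tert livers and p21+/TertCi livers (n = 4 and 2) in edgeR (adjusted p of at least 0.93), and DESeq2 called none. An unadjusted p under 0.05 in edgeR was found for 3 of 44 members and for 756 of all 15182 genes. The livers differed along the title prefix, which only p21+/Tert livers carry, so prefix and genotype are partly mixed in this comparison. In 10 of the 44 members (22.7%) the 3 livers with the prefix lay below the other 3, against 8.43% of all 15182 genes, and in 2 members (4.55%), Etfb and Phyh, they lay above, against 11.6% of all genes. The 10 were Cpt2, Acox2, Crot, Hacl1, Acot1, Acot2, Acot3, Cd36, Vnn1, and Pdk4. Acot3, a peroxisomal thioesterase, had 3.67, 7.29, and 1.29 CPM in the livers of the mice with T-HCC662, T-HCC663, and T-HCC941 and 14.1, 11.3, and 55.5 CPM in the livers of the mice with T-HCA992, TCi-HCC981, and TCi-HCA984. Pdk4 had 1.62, 6.45, and 4.78 CPM in the former and 22.2, 18.1, and 33.7 CPM in the latter. The liver of the TCi-HCA984 mouse was the highest of the 6 in both genes.

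**Figure D1:**
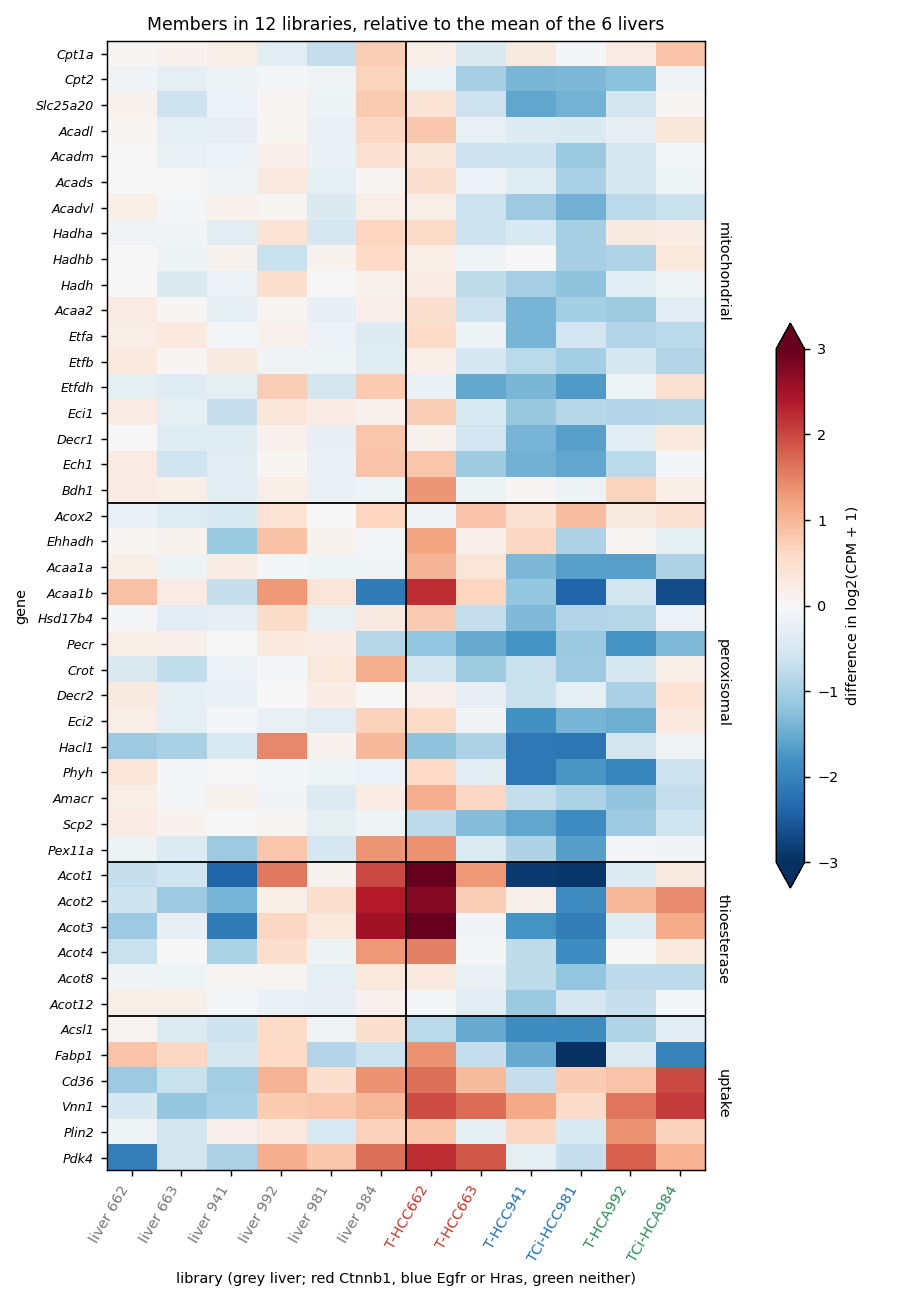
Difference of each member (rows, by role group) in each library (columns) from the mean of the 6 livers, in log2(CPM + 1), with colors saturating beyond the ends of the scale. Most mitochondrial and peroxisomal members are blue in T-HCC941, TCi-HCC981, and T-HCA992, and T-HCC662 is red in 35 of the 44. In T-HCC663 all 18 mitochondrial members and 9 of the 14 peroxisomal members lie below the mean of the livers.

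Tumors without Ctnnb1 mutation (n = 4) were set against the 6 livers to ask how the pathway stands in tumors with other drivers or none. Of the 44 members, 19 were lower and none higher (43.2% lower, against 11.5% of the 15182 genes tested and 11.3% higher). The median log2 fold change of the members was -0.84, and that of all genes -0.03. In 11 members (25.0%, against 7.36% of all genes) the 4 tumors all lay below the 6 livers, and in 31 members (70.5%, against 22.2%) each of the 4 tumors lay below the liver of its own mouse.

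Among the mitochondrial members 8 of 18 were lower in these tumors, with a group median of -0.82. They were Cpt2, which hands long chains back to CoA inside the mitochondrion, the carrier Slc25a20, the very long chain dehydrogenase Acadvl, the hydroxyacyl-CoA dehydrogenase Hadh, the thiolase Acaa2, the isomerase Eci1, and both subunits of electron transfer flavoprotein, Etfa and Etfb. Their log2 fold changes ranged from -1.03 (Acadvl, SE 0.22, adjusted p = 0.00745) to -0.71 (Hadh, SE 0.24, adjusted p = 0.05, rounded up from just under it). Etfa had 131 to 211 CPM in the livers (median 177). It had 64.8 CPM in T-HCC941, 115 in TCi-HCC981, 93.3 in T-HCA992, and 98 in TCi-HCA984, all below the lowest liver (log2 fold change -0.92, SE 0.22, adjusted p = 0.0127). With the mouse as a block Etfa did not pass. Eci1, which moves the double bond of unsaturated chains, had 61.2 to 128 CPM in the livers (median 113) and 44.5 CPM in T-HCC941, 54.2 in TCi-HCC981, 53.7 in T-HCA992, and 54.8 in TCi-HCA984. These 4 tumors lay close together and below every liver (log2 fold change -1.0, SE 0.27, adjusted p = 0.0204). Cpt2 had 158 to 310.5 CPM in the livers (median 182) and 75 CPM in T-HCC941, 75.7 in TCi-HCC981, 82.1 in T-HCA992, and 181 in TCi-HCA984, where TCi-HCA984 lay within the livers and the other 3 tumors below them (log2 fold change -1.02, SE 0.29, adjusted p = 0.0251).

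Cpt1a, the carnitine palmitoyltransferase of the entry step, did not pass the test in this comparison. It had 188 to 520.3 CPM in the livers (median 325) and 375 CPM in T-HCC941, 305 in TCi-HCC981, 371 in T-HCA992, and 567 in TCi-HCA984, and each of the 4 tumors was above the liver of its own mouse (log2 fold change 0.27, SE 0.28, adjusted p = 0.529). Bdh1, which interconverts acetoacetate and 3-hydroxybutyrate, had 177 to 257 CPM in the livers (median 227) and 226 CPM in T-HCC941, 198 in TCi-HCC981, 347 in T-HCA992, and 251 in TCi-HCA984, with ranges that overlap (log2 fold change 0.17, SE 0.26, adjusted p = 0.695). The medium and short chain dehydrogenases Acadm and Acads, the long chain dehydrogenase Acadl, and the trifunctional protein subunits Hadha and Hadhb had log2 fold changes from -0.60 to -0.21 and did not pass the test. Etfdh, Decr1, and Ech1 had -0.80, -0.84, and -1.05 (adjusted p = 0.126, 0.0501, and 0.0737). Hadh lost its call in 12 of 20 alternatives and Slc25a20 in 8.

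Among the peroxisomal members 7 of 14 were lower, with a group median of -1.0. They were Acaa1a, Pecr, Eci2, Hacl1, Phyh, Amacr, and Scp2. Acaa1a, a 3-ketoacyl-CoA thiolase, had 284 to 373 CPM in the livers (median 305) and 124 CPM in T-HCC941, 103 in TCi-HCC981, 102 in T-HCA992, and 166 in TCi-HCA984. All 4 tumors lay below the livers (log2 fold change -1.39, SE 0.22, adjusted p = 0.00128). Phyh, the first enzyme of α-oxidation, had 1306 to 1910.5 CPM in the livers (median 1438) and 335 CPM in T-HCC941, 439 in TCi-HCC981, 378 in T-HCA992, and 968 in TCi-HCA984, again without overlap (log2 fold change -1.56, SE 0.32, adjusted p = 0.00534). Amacr, the racemase of branched chain acyl-CoA and bile acid precursors, had 116 to 183 CPM in the livers (median 161) and 93.5 CPM in T-HCC941, 79.6 in TCi-HCC981, 68.1 in T-HCA992, and 94.7 in TCi-HCA984 (log2 fold change -0.92, SE 0.19, adjusted p = 0.00617). Hacl1, the lyase that follows Phyh, and the isomerase Eci2 fell by 1.58 and 1.04 on the log2 scale (adjusted p = 0.0379 and 0.0484), and they lost their calls in 7 and 13 of 20 alternatives. Acox2, an oxidase of branched chains and bile acid precursors, had 107 to 228 CPM in the livers (median 136) and 200.3 CPM in T-HCC941, 277 in TCi-HCC981, 178 in T-HCA992, and 197 in TCi-HCA984, and it did not pass the test (log2 fold change 0.46, SE 0.27, adjusted p = 0.237). Crot, which links medium chains to carnitine, had 309 to 1092 CPM in the livers (median 477) and 326 CPM in T-HCC941, 241 in TCi-HCC981, 371 in T-HCA992, and 586 in TCi-HCA984. Each of these tumors was below its own liver, and the groups overlapped (log2 fold change -0.63, SE 0.35, adjusted p = 0.22). Ehhadh, Acaa1b, Hsd17b4, Decr2, and Pex11a had log2 fold changes from -1.81 to -0.16 and did not pass.

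Of the 6 thioesterases, Acot1, Acot8, and Acot12 were lower, and all 6 had negative log2 fold changes (median -0.87). Of the 20 alternatives tried, Acot12 lost its call in 15, among them the mouse as a block and the title prefix as covariate, and Acot1 in 11. Acot8, a peroxisomal enzyme, had 15.3 to 23.2 CPM in the livers (median 18.6) and 10.5 CPM in T-HCC941, 7.81 in TCi-HCC981, 10.4 in T-HCA992, and 10.3 in TCi-HCA984, with no overlap (log2 fold change -0.96, SE 0.18, adjusted p = 0.00415). Acot12, a cytosolic acetyl-CoA thioesterase, had 88.0 to 119.7 CPM in the livers (median 109) and 47.9 CPM in T-HCC941, 73.6 in TCi-HCC981, 64.6 in T-HCA992, and 102 in TCi-HCA984 (log2 fold change -0.59, SE 0.19, adjusted p = 0.0467). Acot1, a cytosolic enzyme of long chains, had 1.97 to 61.0 CPM in the livers (median 12.6) and 1.13 CPM in T-HCC941, 1.08 in TCi-HCC981, 10.8 in T-HCA992, and 17.9 in TCi-HCA984, where T-HCC941 and TCi-HCC981 lay below every liver and the adenomas within them (log2 fold change -2.60, SE 0.86, adjusted p = 0.0492).

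In the uptake and storage group 1 of 6, Acsl1, was lower, and the group median was 0.24. Fabp1 had 800.2 to 2636 CPM in the livers (median 1618) and 514 CPM in T-HCC941, 108 in TCi-HCC981, 1101 in T-HCA992, and 364 in TCi-HCA984, of which 3 were below the lowest liver (log2 fold change -1.80, SE 0.61, adjusted p = 0.0523). The lipid droplet coat protein gene Plin2 had 301 to 721 CPM in the livers (median 452) and 685 CPM in T-HCC941, 325 in TCi-HCC981, 1134 in T-HCA992, and 724 in TCi-HCA984 (log2 fold change 0.53, SE 0.34, adjusted p = 0.277). Cd36, the pantetheinase gene Vnn1, and Pdk4 had log2 fold changes of 0.53, 1.11, and -0.05, and none passed the test. With the title prefix as covariate 19 members were lower in this comparison and Vnn1 was higher, and 17 of the lower 19 were those named above. With only the p21+/Tert libraries, which leave 2 of the 4 tumors, 9 were lower, all of them among the 19. Without T-HCC941, TCi-HCC981, or T-HCA992 the count was 10, 11, or 9. Of the 8 hepatocyte markers 2 were lower and 1 was higher in these tumors, and 5 had negative log2 fold changes (median -0.69), although their sum was above every liver. Of the 5 bile duct markers 1 was higher and 3 had negative values (median -0.88).

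**Figure D2:**
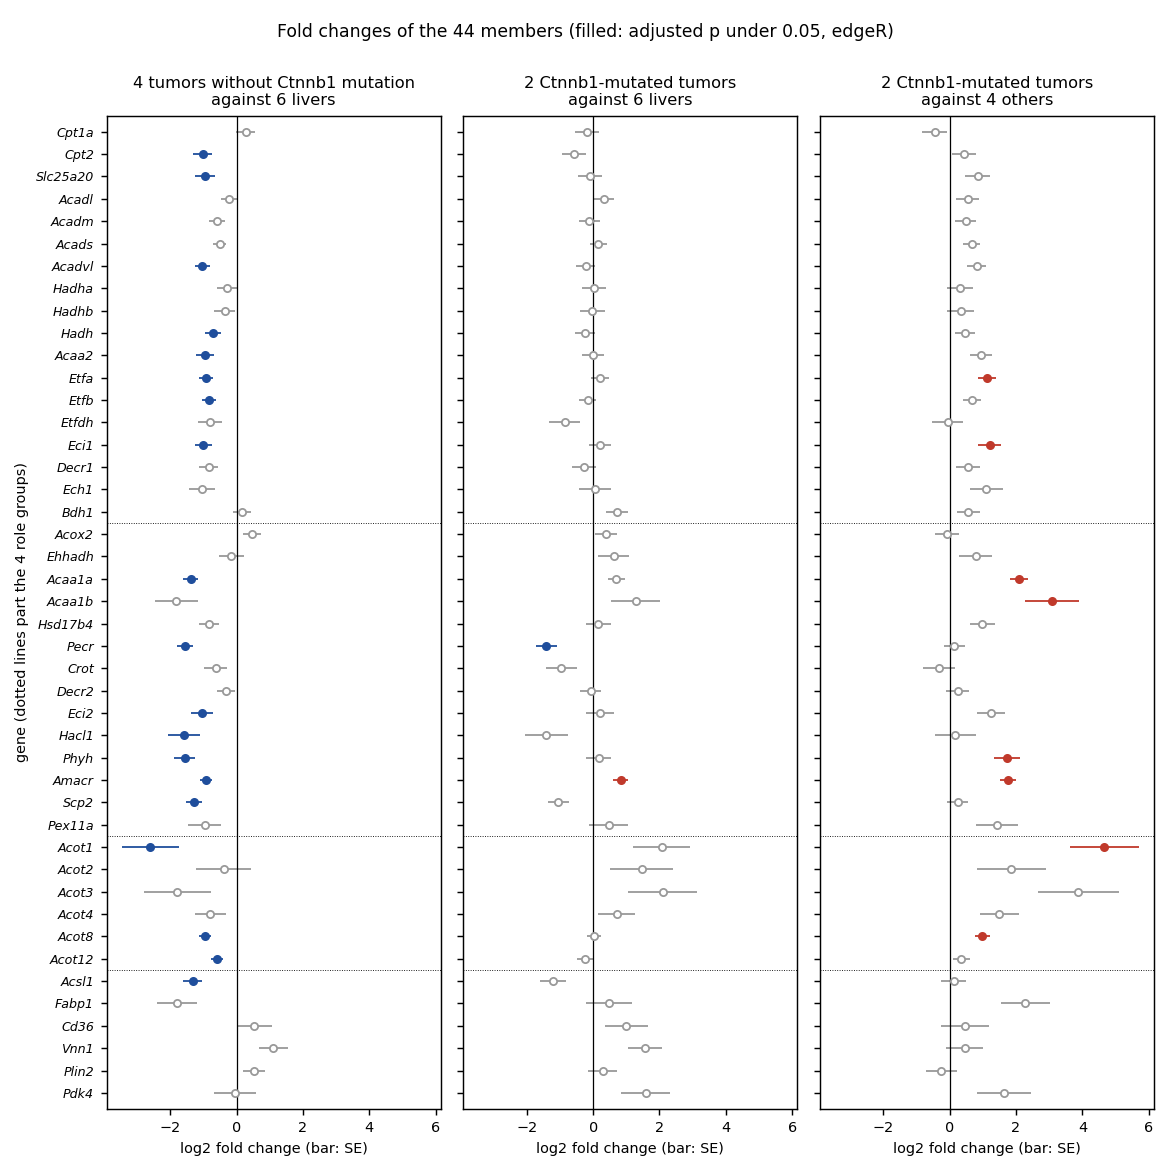
Log2 fold changes (points) with SE (bars) of the 44 members in tumors without Ctnnb1 mutation against livers (left), in Ctnnb1-mutated tumors against livers (middle), and in Ctnnb1-mutated against other tumors (right), with filled points at an adjusted p under 0.05 in edgeR. On the left 19 members are filled and negative, in the middle 1 is filled on each side, and on the right 8 are filled and positive.

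Ctnnb1-mutated tumors (n = 2) were compared with the 6 livers in the same model. Amacr was higher and Pecr lower (2.27% of the members each way, against 5.00% of all genes higher and 3.20% lower), and the median log2 fold change of the members was 0.16. The 2 tumors were unlike each other in these genes. T-HCC662 was above the mean of the livers in 35 members and T-HCC663 in 10. Amacr had 330.4 CPM in T-HCC662 and 240.4 in T-HCC663, both above the livers (log2 fold change 0.84, SE 0.23, adjusted p = 0.0423), and Pecr had 53.6 CPM in T-HCC662 and 41.6 in T-HCC663 (log2 fold change -1.41, SE 0.32, adjusted p = 0.0217). With the mouse as a block neither passed, and Cd36, Vnn1, and Pdk4 were called higher in their place. With the title prefix as covariate Pecr was lower and Acot1, Cd36, Vnn1, and Pdk4 were higher. Without T-HCC662 no member was called, and without T-HCC663 the 1 call was Bdh1. Amacr also lost its call without any 1 of the livers other than that of the TCi-HCA984 mouse and without T-HCC941 or TCi-HCC981, where Pecr remained.

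The Ctnnb1-mutated tumors were then set against the other 4 tumors. Of the 44 members, 8 were higher in the Ctnnb1-mutated tumors (18.2%, against 6.76% of all genes) and none lower (5.72% of all genes), with a median log2 fold change of 0.67 against -0.004 for all genes. Not overlapping is common with 2 tumors against 4, and both Ctnnb1-mutated tumors lay above the other 4 in 10 members (22.7%) and in 18.5% of all genes, a share near that of the members. The 8 were Acaa1a, Acaa1b, Amacr, and Phyh of the peroxisome, Etfa and Eci1 of the mitochondrion, and the thioesterase genes Acot1 and Acot8.

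Acaa1a had 644 CPM in T-HCC662 and 411 in T-HCC663, against 124 CPM in T-HCC941, 103 in TCi-HCC981, 102 in T-HCA992, and 166 in TCi-HCA984 (log2 fold change 2.09, SE 0.27, adjusted p = 0.000936). Acaa1a lies at chr9:119339676-119350299 on the plus strand and its near copy Acaa1b at chr9:119148023-119157093 on the minus strand (GRCm38). Acaa1b had 211 to 2236 CPM in the livers (median 1122). In the tumors Acaa1b had 4218 CPM in T-HCC662 and 1425 in T-HCC663, and 407 CPM in T-HCC941, 169 in TCi-HCC981, 616 in T-HCA992, and 143 in TCi-HCA984 (log2 fold change 3.09, SE 0.80, adjusted p = 0.0309). The livers alone spanned a wide range in Acaa1b and a narrow one in Acaa1a. Amacr was higher in the Ctnnb1-mutated tumors by 1.76 on the log2 scale (SE 0.24, adjusted p = 0.00146). Phyh had 2229 CPM in T-HCC662 and 1187 in T-HCC663, with T-HCC663 below every liver and above TCi-HCA984 (log2 fold change 1.73, SE 0.39, adjusted p = 0.0171).

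Etfa had 253 CPM in T-HCC662 and 155 in T-HCC663 and Eci1 167 CPM in T-HCC662 and 72.0 in T-HCC663, with log2 fold changes of 1.13 for Etfa (SE 0.28, adjusted p = 0.0266) and 1.2 for Eci1 (SE 0.33, adjusted p = 0.0387). Acot1 had 166 CPM in T-HCC662 and 37.3 in T-HCC663, far above the 2 tumors with Egfr or Hras mutations, and had the largest log2 fold change of the members, 4.66 (SE 1.03, adjusted p = 0.017). Acot8 had 23.0 CPM in T-HCC662 and 15.9 in T-HCC663, both within the range of the livers (log2 fold change 0.99, SE 0.23, adjusted p = 0.0215). The other thioesterase members had log2 fold changes from 0.35 (Acot12, with 101 CPM in T-HCC662 and 82.5 in T-HCC663) to 3.88 (Acot3, with 128 CPM in T-HCC662 and 8.33 in T-HCC663 and 1.84 CPM in T-HCC941, 1.34 in TCi-HCC981, 6.66 in T-HCA992, and 20.2 in TCi-HCA984) without passing. In the uptake group Fabp1 had 3739.8 CPM in T-HCC662 and 915 in T-HCC663 and the largest value, 2.28 (SE 0.73, adjusted p = 0.0613). Plin2 had 792 CPM in T-HCC662 and 364 in T-HCC663 and the smallest, -0.25 (SE 0.46, adjusted p = 0.752). Cpt1a, at -0.46 (SE 0.39), and Crot, at -0.32 (SE 0.47), had the lowest values of the mitochondrial and peroxisomal members, with 355 CPM in T-HCC662 and 231 in T-HCC663 for Cpt1a and 349 CPM in T-HCC662 and 244 in T-HCC663 for Crot.

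The count of calls depended on single tumors. Without T-HCC662 2 members, Acaa1a and Amacr, were called, without T-HCC663 there were 12, and without T-HCA992 or TCi-HCC981 there were 4. With the mouse as a block, which compares the change from the own liver, Acaa1a, Amacr, and Acot1 were called (3 of 44), and with the mouse of T-HCC662 left out of that fit none was. With the 6 tumors alone 4 members were called, with the title prefix as covariate 6, and with only p21+/Tert libraries 5. Acaa1a and Amacr were among the calls in each of these except the block without that mouse. Of the 8 hepatocyte markers 3 were lower and none higher in Ctnnb1-mutated than in other tumors, and 7 had negative log2 fold changes (median -0.72).

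**Figure D3:**
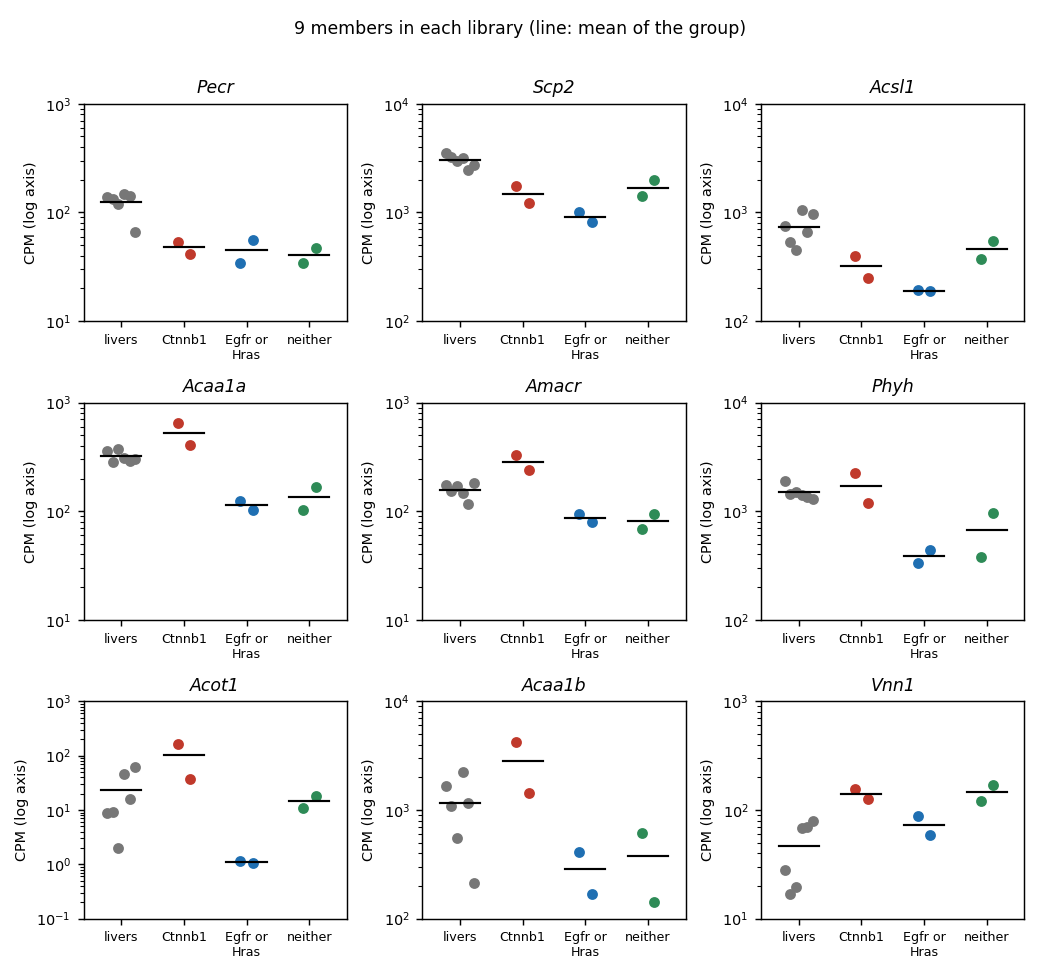
CPM (log axis) of 9 members in each library, by group, with the group mean as a line. Pecr and Scp2 lie below all livers in each tumor class, whereas Acaa1a and Amacr lie above the livers in both Ctnnb1-mutated tumors and below them in the other 4.

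Over all 6 tumors against the 6 livers, 3 of the 44 members were lower (6.82%, against 3.91% of 13822 genes) and none higher (6.77% of genes). The median log2 fold change was -0.39 for the members and 0.01 for all genes. Pecr, a peroxisomal enoyl-CoA reductase, had 66.1 to 147 CPM in the livers (median 136). It had 53.6 CPM in T-HCC662 and 41.6 in T-HCC663, and 34.0 CPM in T-HCC941, 55.6 in TCi-HCC981, 34.6 in T-HCA992, and 47.4 in TCi-HCA984, so every tumor lay below every liver (log2 fold change -1.49, SE 0.21, adjusted p = 0.00147). The liver of the TCi-HCA984 mouse was the lowest, at 66.1 CPM. Scp2 had 2474 to 3560.3 CPM in the livers (median 3059), 1751 CPM in T-HCC662 and 1221 in T-HCC663, and 1011 CPM in T-HCC941, 814 in TCi-HCC981, 1417 in T-HCA992, and 1975 in TCi-HCA984, again with no overlap (log2 fold change -1.15, SE 0.27, adjusted p = 0.0176). These are the 2 members (4.55%) in which all 6 tumors lay below all 6 livers, as in 2.02% of all genes. Acsl1, the main long chain acyl-CoA synthetase of liver, had 454 to 1051 CPM in the livers (median 702), 399 CPM in T-HCC662 and 248 in T-HCC663, and 191 CPM in T-HCC941, 188 in TCi-HCC981, 373 in T-HCA992, and 552 in TCi-HCA984. TCi-HCA984 overlapped with the livers, and each tumor was below its own liver (log2 fold change -1.18, SE 0.32, adjusted p = 0.0333). Of 19 alternatives Acsl1 lost its call in 8, 7 of which left out a single library (T-HCC663, T-HCC941, T-HCA992, TCi-HCC981, or the liver of the T-HCC662, T-HCA992, or TCi-HCA984 mouse), and Pecr and Scp2 in none.

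Vnn1, a known PPARα target, had 17.0 to 79.5 CPM in the livers (median 48.1), 156 CPM in T-HCC662 and 127 in T-HCC663, and 87.4 CPM in T-HCC941, 58.5 in TCi-HCC981, 121 in T-HCA992, and 170.0 in TCi-HCA984. TCi-HCC981 alone fell within the livers, and the difference missed the threshold (log2 fold change 1.34, SE 0.41, adjusted p = 0.0547). With the mouse as a block 8 members were called, with Vnn1 higher and Cpt2, Acadvl, Etfdh, Pecr, Hacl1, Scp2, and Acsl1 lower. Relative to the own livers, 8 members (18.2%, against 10.8% of all genes) were lower in all 6 tumors, and 1 (2.27%, against 11.0%), Plin2, was higher in all 6. Some of these differences were close to none. Plin2 differed by 0.01 in TCi-HCC981 and 0.005 in TCi-HCA984 on the log2 scale, and Acadvl, among the 8, by -0.001 in T-HCC662. Without T-HCC662, 12 members were called, all lower. Among the remaining mitochondrial members the largest log2 fold change was that of Bdh1 (0.40, SE 0.26, 548 CPM in T-HCC662 and 196 in T-HCC663) and the smallest that of Cpt2 (-0.81, SE 0.28, 175 CPM in T-HCC662 and 96.6 in T-HCC663). Of the peroxisomal members Acox2 had the largest (0.45, SE 0.24, 138 CPM in T-HCC662 and 267 in T-HCC663), and of the thioesterases Acot3 (0.81, SE 1.07) the largest and Acot8 (-0.54, SE 0.24) the smallest.

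Taken tumor by tumor, the median difference of the 44 members from the mean of the livers was 0.56 for T-HCC662 and -0.33 for T-HCC663, and it was -1.05 in T-HCC941, -1.11 in TCi-HCC981, -0.53 in T-HCA992, and -0.05 in TCi-HCA984 on the log2(CPM + 1) scale, where the medians of the 6 livers had an SD of 0.31. T-HCC941 and TCi-HCC981 were the lowest, and TCi-HCA984 lay at the level of the livers. Against the liver of the same mouse the value of TCi-HCA984 was -0.48, since its own liver lay 0.54 above the mean of the livers. The 6 thioesterases differed most between tumors, from 2.12 in T-HCC662 to -1.87 in TCi-HCC981 (SD between livers 0.96). The mitochondrial members ranged from 0.38 in T-HCC662 to -1.05 in T-HCC941, and the peroxisomal from 0.58 in T-HCC662 to -1.25 in TCi-HCC981 (SD between livers 0.28 and 0.19). The Ctnnb1-mutated T-HCC663 had a mitochondrial median of -0.59, close to the -0.53 of T-HCA992, and all 18 mitochondrial members lay below the mean of the livers. Its peroxisomal median was -0.28.

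**Figure D4:**
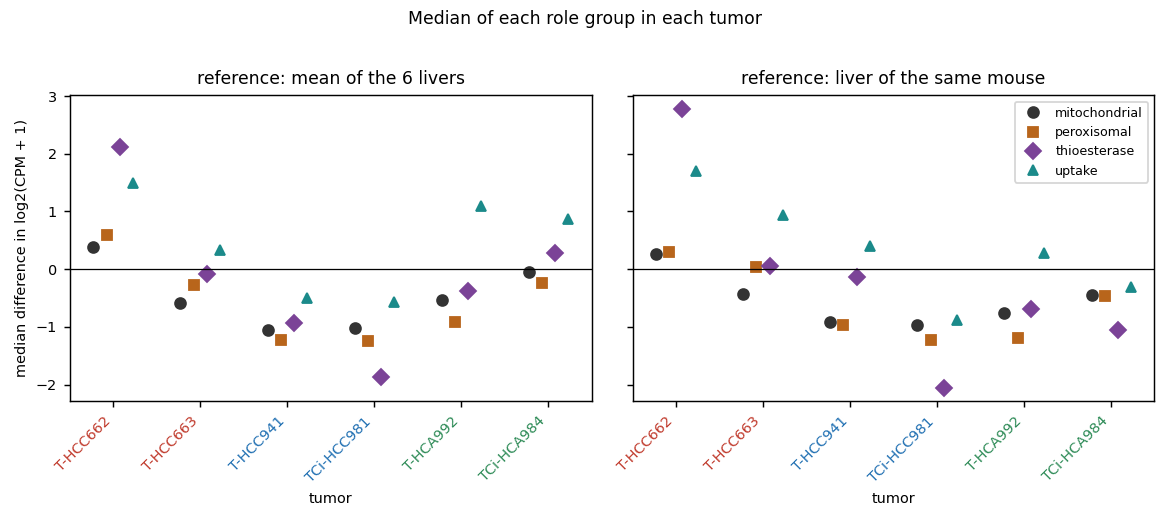
Median difference in log2(CPM + 1) of each role group in each tumor, from the mean of the 6 livers (left) and from the liver of the same mouse (right). T-HCC662 has all 4 group medians above 0 on both sides, and T-HCC941 and TCi-HCC981 have mitochondrial and peroxisomal medians of -0.92 or lower on both.

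Tumors with Egfr or Hras mutations (n = 2) were compared with the tumors with neither driver (n = 2). No member passed in edgeR, and DESeq2 called none. An unadjusted p under 0.05 was found for 9 of 44 members and for 1331 of all 15182 genes in edgeR. The members' median log2 fold change was -0.81 (all genes -0.04), and 40 of the 44 were lower in the Egfr- or Hras-mutated tumors, against 8034 of the 15182 genes. The smallest p belonged to Decr1, the dienoyl-CoA reductase of unsaturated chains (log2 fold change -1.57, SE 0.43, adjusted p = 0.46). Acot1 had the largest difference, -3.72 (SE 1.37, adjusted p = 0.527).

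Within p21+/Tert mice (n = 4 tumors and 4 livers) Vnn1 was higher (2.27% of members, 4.20% of all genes) and Pecr lower (2.27%, against 2.30% of all genes). On the log2 scale Vnn1 differed by 1.87 (SE 0.46, adjusted p = 0.0368), whereas Pecr differed by -1.74 (SE 0.24, adjusted p = 0.00444). With the mouse as a block 5 were called, with Acot2 and Vnn1 higher and Pecr, Scp2, and Acsl1 lower. Vnn1 lost its call without any 1 of the 4 tumors and without the liver of the T-HCC662, T-HCC663, or T-HCC941 mouse. In p21+/TertCi mice (n = 2 and 2) no member passed in edgeR or DESeq2. An unadjusted p under 0.05 in edgeR was found for 3 of 44 members and for 1618 of all 15182 genes. The members' median was -0.79, and the log2 fold change for Pecr was -1.02 (SE 0.34, adjusted p = 0.359). The difference between the genotypes, tested as an interaction, gave no call of a member in edgeR or DESeq2. In edgeR 1 member, Acot2, had an unadjusted p under 0.05 (log2 difference 3.57, SE 1.48), as had 556 of all 15182 genes. The p21+/Tert tumors hold both Ctnnb1-mutated tumors and the p21+/TertCi tumors none, so this comparison of genotypes mixes genotype with driver.

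Other genes of the pathway were counted from 5 lists. Only the main fits are given for these lists. How far their calls rest on single libraries, on the pairing, or on the title prefix was not tested. In the contrast of Ctnnb1-mutated with other tumors the calls of members depended on T-HCC662. Among 33 further genes of oxidation and transport, 11 were lower and 3 higher in tumors without Ctnnb1 mutation than in livers (33.3% and 9.09%, against 11.5% and 11.3% of all genes). Over all tumors 6 were lower and 2 higher (18.2% and 6.06%, against 3.91% and 6.77% of all genes), so the shares higher were near those of all genes. The called genes of smallest p over all tumors were Slc27a5, the bile acid and fatty acid CoA ligase, which fell by 1.6 on the log2 scale (SE 0.24, adjusted p = 0.00188), Nudt7, a peroxisomal CoA diphosphatase, by 2.53, Acadsb, the short and branched chain dehydrogenase, by 1.28, and the peroxisomal genes Pxmp2 and Pex16 by 1.06 and 0.86. Acsl4, the synthetase that prefers arachidonic acid, rose by 1.63 on the log2 scale (SE 0.27, adjusted p = 0.00314), where Acsl1 had fallen. Between Ctnnb1-mutated and other tumors 1 of the 33 (3.03%, against 6.76% of all genes), Mlycd, was higher, by 1.29 on the log2 scale (SE 0.26, adjusted p = 0.0115). Mlycd had 152 CPM in T-HCC662 and 139 in T-HCC663, both within the livers (95.4 to 184 CPM), and 42.8 to 87.1 CPM in the other tumors. Its product removes malonyl-CoA, the inhibitor of the entry step.

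Of 9 genes of ω-oxidation, 4 were higher in Ctnnb1-mutated than in other tumors (44.4%, against 6.76% of all genes). In tumors without Ctnnb1 mutation 5 were lower and 1 was higher than in livers (55.6% and 11.1%, against 11.5% and 11.3% of all genes). The fatty acid ω-hydroxylase genes Cyp4a12b, Cyp4a12a, and Cyp4a10 and the fatty aldehyde dehydrogenase gene Aldh3a2 had log2 fold changes of 6.04, 3.84, 5.21, and 2.5 between the tumor classes (adjusted p = 0.000743, 0.0069, 0.0309, and 0.00649). The Cyp4a12 genes are near-identical copies, so their separate counts are uncertain. Of 13 genes of lipolysis and lipid droplets, 4 were higher and 1 lower in Ctnnb1-mutated than in other tumors (30.8% and 7.69%, against 6.76% and 5.72% of all genes). Among the 4 were the droplet genes Plin4 (4.09, adjusted p = 0.0156) and Cideb (1.47, adjusted p = 0.00671). Over all tumors 3 of the 13 were higher and 1 lower (23.1% and 7.69%, against 6.77% and 3.91% of all genes), with Pnpla3, a lipid droplet hydrolase, at 4.39 (adjusted p = 0.0077) and Lipe, the hormone-sensitive lipase, at -0.70 (adjusted p = 0.0282).

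Of 6 further ketone body genes 1, Bdh2, was lower over all tumors and in both classes of tumors than in livers, and lower in Ctnnb1-mutated than in other tumors (-3.14, SE 0.89, adjusted p = 0.041). Its levels were low, with 2.76 to 26.9 CPM in the livers and 3.12 to 4.83 in the tumors without Ctnnb1 mutation. T-HCC662 had 0.77 CPM and T-HCC663 0.13, so the contrast between tumor classes rests on few reads. The liver of the TCi-HCA984 mouse (2.76 CPM) lay below its own tumor (3.12 CPM). Of 8 regulators none was called over all tumors, and Sirt3, a mitochondrial deacetylase, was higher in Ctnnb1-mutated than in other tumors (1.21, SE 0.30, adjusted p = 0.0253). In tumors without Ctnnb1 mutation Sirt3 (-1.42, SE 0.24, adjusted p = 0.00214) and the nuclear receptor gene Esrra (-0.93, SE 0.31, adjusted p = 0.0491) were lower than in livers. Esrra had 61.25 to 68.7 CPM in the livers with the title prefix and 29.0 to 45.8 in those without. T-HCC941 (32.9 CPM) and T-HCA992 (36.0 CPM) lay within the latter, and TCi-HCC981 (15.5 CPM) and TCi-HCA984 (23.5 CPM) lay below every liver. Ppara itself had a log2 fold change of -0.18 over all tumors (SE 0.27). It had 0.38 between Ctnnb1-mutated and other tumors (SE 0.38) and -0.35 in tumors without Ctnnb1 mutation against livers (SE 0.29). Its partner Rxra had -0.71, 0.24, and -0.82 in the same order (SE 0.27, 0.39, and 0.30). The coactivator genes Ppargc1a and Ppargc1b, Creb3l3, and Fgf21, which encodes a hepatic hormone, had -0.10, -0.82, -0.56, and 2.77 over all tumors (adjusted p = 0.896, 0.286, 0.224, and 0.0668), and none passed there. Within p21+/Tert mice Fgf21 was higher (log2 fold change 4.51, adjusted p = 0.0278 in edgeR). It was the 1 call among the 8 regulators (12.5%, against 4.20% of all genes). Fgf21 had 0.53 to 26.8 CPM in the livers and 7.45 to 86.8 in the tumors. Each tumor was above its own liver, with 32.5 against 26.8 CPM for TCi-HCA984 as the closest pair.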

How the data were processed

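The deposited files hold raw read counts per gene symbol, which the authors made from paired-end poly(A) RNA-seq with Subread-align against mm10 with added mCherry sequence and with featureCounts 1.6.4, without normalization. The annotation release, strand setting, and treatment of multimapping reads are not given in the sources used here. The study corrected for sequencing run, which the labels do not give, so that step was not repeated.

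All genes that passed edgeR's filter for low counts were fitted with edgeR 4.0.16 (R 4.3.3), TMM scaling, the quasi-likelihood test, and Benjamini-Hochberg adjustment. A call is an adjusted p under 0.05, and an SE is the log2 fold change over the square root of F. Tissue was the term of the first model over all 12 libraries, 4 tumor and liver classes of the second, and genotype with tissue of the third, so comparisons share libraries. Tumor class came from the mutations that the study gives for each mouse number. Role medians used log2(CPM + 1). Promoter windows came from RefSeq, and members without a window were Acaa2, Decr1, Hsd17b4, Amacr, and Vnn1. The fit was tested on simulated counts with known changes.

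Tumors and livers of the same number came from the same mouse, which is where the pairing comes from. Deviations from the group mean correlated between tumor and own liver at 0.04 to 0.44 in the 4 p21+/Tert mice (Pearson r across genes) and at 0.55 in p21+/TertCi mice, where 2 mice mirror each other and give 1 value. The liver numbered 961 was taken as that of the T-HCC662 mouse by elimination, so the fit with the mouse as a block was also run without that mouse. The main fits treated all libraries as independent, so their p-values measure the spread between libraries within a group and leave out the pairing. Only the fits with the mouse as a block take the pairing into account. No libraries held identical values.

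Per-library values were given for members called over all tumors or between Ctnnb1-mutated and other tumors (at most 12 of smallest p in each), for the largest and smallest log2 fold change of each role group there, and for Cpt1a and Bdh1. Pdk4 in the livers, Bdh2, the levels of Esrra and Mlycd, and the further values of Fgf21 were chosen after their values were seen. Other pathway genes were named when called in either comparison (at most 8 of smallest p in each), and the regulators always. Members and lists were chosen with earlier results of these data known. Alternatives were DESeq2 1.42.0, other size factors, no count filter, the mouse block, single libraries left out, and only the libraries compared. The title prefix as covariate, p21+/Tert libraries alone, and leaving out the T-HCC662 mouse were added after seeing the data. Other tumors of the study were not analysed here.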

Additional observations from a re-analysis of the deposited data

Results flagged for a closer look

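Each member was looked at in the 6 livers and in the 6 tumors for a library whose gap to the next exceeded Dixon's critical value (0.625 for 6 values). Of 88 such groups 19 were flagged, where the rule nominally flags about 1 in 20. The share over all genes was not computed. The 6 tumors mix driver classes, and many flags fall on the same library. The count is therefore not read as an excess in these genes.

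T-HCC662 was far above the other tumors in 11 members. It had 4218 CPM for Acaa1b, 3739.8 for Fabp1, 609.8 for Acadvl, 497 for Hsd17b4, 402 for Etfb, 167 for Eci1, and 77.5 for Pex11a. For the thioesterases it had 166 CPM for Acot1, 128 for Acot3, 84.8 for Acot4, and 56.5 for Acot2. TCi-HCA984 stood above the other tumors in Crot with 586 CPM.

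The liver of the TCi-HCA984 mouse stood above the other livers in Cpt2 (310.5 CPM), Decr1 (277 CPM), Acadl (269 CPM), Acot3 (55.5 CPM), and Acot2 (43.8 CPM), and below them in Pecr (66.1 CPM). The liver of the T-HCC662 mouse was the highest in Phyh with 1910.5 CPM.

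The change from the own liver differed between Ctnnb1-mutated and other tumors for 3 members in the fit with the mouse as a block. The difference was 5.35 on the log2 scale for Acot1 (SE 0.89, adjusted p = 0.0319), 2.07 for Acaa1a (SE 0.34, adjusted p = 0.0315), and 1.65 for Amacr (SE 0.28, adjusted p = 0.0324). Both Ctnnb1-mutated tumors exceeded their own livers in all 3 genes, and the 4 other tumors lay below theirs. With the T-HCC662 mouse left out of this fit none of the 3 was called.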

How the results depend on the processing

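No call of a member changed direction under any alternative. With other size factors or no count filter, all counts of called members stayed within 1.5 times those reported. DESeq2 called 7 members instead of 3 over all tumors, 13 instead of 8 between Ctnnb1-mutated and other tumors, 6 instead of 2 in Ctnnb1-mutated tumors against livers, and 5 instead of 2 in p21+/Tert mice. With the mouse as a replicate block these counts were 8, 3, 3, and 5, and with the T-HCC662 mouse left out of the block they were 14, 0, 0, and 1. In tumors without Ctnnb1 mutation against livers the block gave 22 members instead of 19, of which 17 were shared. The block made no call in the other comparisons. With single libraries left out, the counts ranged from 2 to 12 over all tumors, from 2 to 12 between Ctnnb1-mutated and other tumors, from 0 to 2 in Ctnnb1-mutated tumors, from 9 to 20 in tumors without Ctnnb1 mutation, and from 1 to 3 in p21+/Tert mice. The lone library left in a group is then assumed to vary like the other groups. With the 6 tumors alone, 4 members were called between tumor classes, and with the 8 libraries compared 1 in Ctnnb1-mutated tumors against livers. Of the alternatives added after seeing the data, p21+/Tert libraries alone gave 5 between tumor classes and 9 in tumors without Ctnnb1 mutation, the title prefix as covariate gave 5 in Ctnnb1-mutated tumors against livers, and leaving out T-HCC662 and the liver of its mouse gave 6 over all tumors. The cause was not tested. Acaa1a, Amacr, Pecr, Phyh, and Scp2 stayed lower in tumors without Ctnnb1 mutation in all 20 alternatives. Each driver class had 2 tumors, and for the low thioesterase genes the livers alone differed many-fold.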
